A study of Mus musculus with 14 samples.

Results

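The circadian clock genes Arntl, Clock, Npas2, Per1, Per2, Per3, Nr1d1, Nr1d2, Dbp and Ciart were followed through RNA-seq of mouse hearts. These 10 genes were chosen by name out of the 42396 genes listed, and all 10 passed the expression filter in both experiments, in which 15592 and 15225 genes were tested. Every heart came from a female mouse. In the knockout experiment, 4 hearts labelled Atf3+/+FS6KD were compared with 4 labelled Atf3-/-FS6KD at 12 weeks of age. FS6KD mice are homozygous for a gene trap in Ndufs6, a gene for part of respiratory complex I, on a mixed C57BL/6J and 129/Ola background, and the control hearts carried it too. Atf3 had been removed by CRISPR-Cas9 with guides in exons 2 and 4, and edited founders had been intercrossed, so the knockout line is not stated to hold a single allele. In the AAV experiment, FS6KD mice were given MyoAAV2-shCtrl or MyoAAV2-shAtf3 as neonates, a muscle-directed virus carrying a control or an Atf3 hairpin, and 3 hearts of each label were taken 12 weeks after injection.

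The labels were checked on their targets. Atf3 was at 25.7, 6.89, 6.90 and 6.35 CPM (counts scaled to a common library size and normalised between libraries) in the 4 libraries labelled Atf3+/+FS6KD and at 25.5, 37.6, 22.7 and 14.3 CPM in those labelled Atf3-/-FS6KD, so it was not lower under the knockout label (edgeR adjusted p = 0.480). Under the label shCtrl it was at 10.1, 13.2 and 14.1 CPM and under shAtf3 at 21.2, 12.1 and 16.5 CPM (edgeR adjusted p = 0.420). The Atf3 counts cover the whole gene, so they need not show a deletion spanning exons 2 to 4. In the AAV table the column names also read the opposite way to the labels. Every direction below, and every difference between the experiments, therefore follows the labels and is conditional on them. Ndufs6 was between 2.33 and 3.79 CPM in all 14 libraries. Total counts were 33914931 to 134920825 in the knockout experiment, with replicates 3 and 4 of each genotype the deeper pair, and 30085432 to 40534913 in the AAV experiment.

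The mammalian clock is a transcriptional feedback loop that runs in nearly every cell, cardiomyocytes included. Arntl (also called Bmal1) pairs with Clock or its paralogue Npas2 to switch on genes that carry E-boxes, among them the Per genes, the Nr1d genes, Dbp and Ciart. The PER proteins feed back on this pair, the nuclear receptors encoded by Nr1d1 and Nr1d2 repress Arntl and Npas2, and DBP passes the rhythm on through D-boxes. In mouse tissues under a light-dark cycle, Arntl and Npas2 transcripts are therefore high when those of Dbp and the Per genes are low, and the reverse. The mice were kept on a light-dark cycle. The hour at which each heart was taken is not given in the sources used here, so no library was placed at a time of day.

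The promoters below are shown because they hold, as letters, the elements by which the members are known to act on each other. They are RefSeq windows of GRCm38.p6, from 250 bases before to 50 bases after a start site, printed 5′ to 3′ on the strand of the gene with the matched letters in capitals. A window was found for 9 of the 10 members. The search covered both strands for the E-box CACGTG, the D-box TTATGTAA or TTACGTAA, the ROR element (RORE) bound by NR1D and ROR receptors, and the cAMP response element TGACGTCA. Of 32851 promoters, 7.15% held the E-box, 1.06% a D-box, 0.384% the RORE and 1.79% the cAMP response element. No matches overlapped. Ciart (chr3:95882179-95882478, minus strand) held 3 E-boxes, starting 116, 58 and 44 bases before the start site. Per1 (chr11:69098699-69098998, plus strand) held 1 E-box, 166 bases before it. Per3 (chr4:151044616-151044915, minus strand) held 2 D-boxes, 205 and 158 bases before it. Arntl (chr7:113207261-113207560, plus strand) held 1 match to the RORE letters, which began 26 bases after the start site and was found for only 1 of the 2 start sites listed. The windows of Clock, Npas2, Nr1d1, Nr1d2 and Dbp held none of these letters.
Ciart: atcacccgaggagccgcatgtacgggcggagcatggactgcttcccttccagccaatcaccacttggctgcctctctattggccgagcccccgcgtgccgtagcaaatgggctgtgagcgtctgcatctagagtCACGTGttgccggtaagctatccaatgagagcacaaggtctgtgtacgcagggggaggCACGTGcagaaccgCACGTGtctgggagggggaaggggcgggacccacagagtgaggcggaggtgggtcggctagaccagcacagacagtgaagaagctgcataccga
Per1: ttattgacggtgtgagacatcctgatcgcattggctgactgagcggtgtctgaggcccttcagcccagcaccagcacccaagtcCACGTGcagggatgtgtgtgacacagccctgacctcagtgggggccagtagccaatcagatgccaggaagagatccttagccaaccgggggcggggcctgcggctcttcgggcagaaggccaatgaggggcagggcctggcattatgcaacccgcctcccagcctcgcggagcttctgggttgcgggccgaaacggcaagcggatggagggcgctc
Per3: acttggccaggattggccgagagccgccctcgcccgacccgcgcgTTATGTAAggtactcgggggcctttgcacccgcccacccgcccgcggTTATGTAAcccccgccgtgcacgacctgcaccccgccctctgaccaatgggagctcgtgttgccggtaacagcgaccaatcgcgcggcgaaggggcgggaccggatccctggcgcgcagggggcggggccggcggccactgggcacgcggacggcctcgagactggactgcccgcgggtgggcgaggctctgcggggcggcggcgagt
Arntl: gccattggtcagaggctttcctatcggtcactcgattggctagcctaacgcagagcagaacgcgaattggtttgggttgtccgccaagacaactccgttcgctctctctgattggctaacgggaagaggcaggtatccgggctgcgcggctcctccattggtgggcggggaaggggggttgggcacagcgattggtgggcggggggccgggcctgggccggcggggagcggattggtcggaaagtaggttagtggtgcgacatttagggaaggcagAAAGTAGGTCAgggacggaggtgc

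The clock genes varied widely from library to library within both groups of the knockout experiment. In the AAV experiment 1 library, replicate 1 labelled shCtrl, stood apart, and the 3 libraries labelled shAtf3 were close together. Arntl spanned 10.3-fold over the 8 libraries of the knockout experiment, and its lowest and its highest value both fell among the libraries labelled Atf3+/+FS6KD. Where Arntl and Npas2 were high, Dbp, Ciart, Nr1d2 and the Per genes were low, and the reverse. None of the 10 members passed the test in either comparison or in the difference between the experiments.

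**Figure D1:**
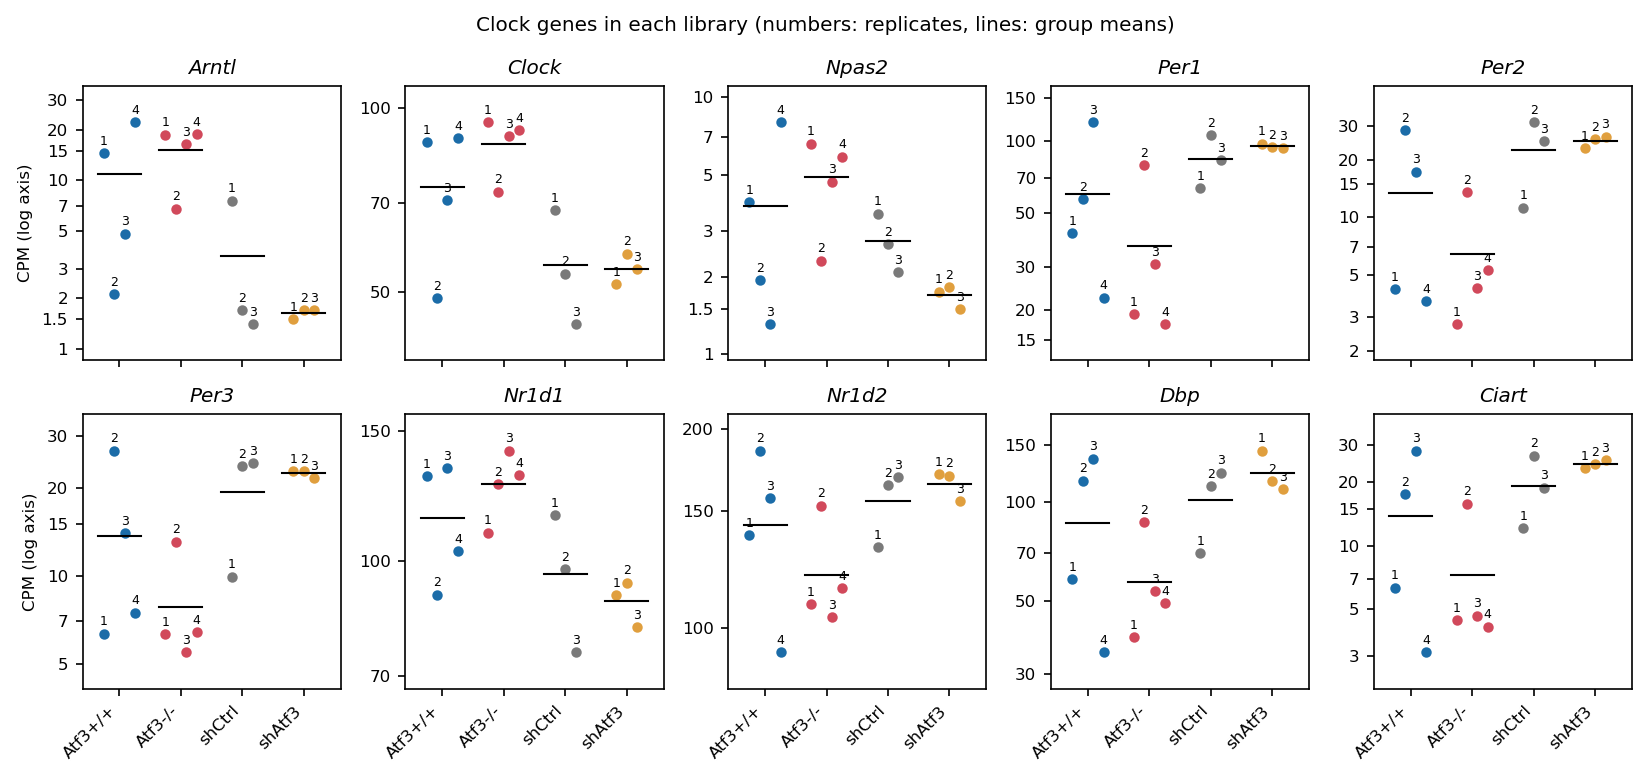
Each panel shows 1 clock gene in CPM on a log axis, with a point per library (numbered by replicate) and a line at the group mean, for the libraries labelled Atf3+/+FS6KD, Atf3-/-FS6KD, MyoAAV2-shCtrl and MyoAAV2-shAtf3. Arntl ran from 2.12 to 22.1 CPM within the group labelled Atf3+/+FS6KD, and in the AAV experiment replicate 1 labelled shCtrl stood at 7.59 CPM with the other 5 libraries at 1.41 to 1.70 CPM.

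The positive arm was examined first. Arntl (chr7:113178471-113314126), the partner without which the loop stops, was at 14.4, 2.12, 4.84 and 22.1 CPM in replicates 1 to 4 labelled Atf3+/+FS6KD and at 18.6, 6.79, 16.4 and 18.9 CPM in those labelled Atf3-/-FS6KD. Replicates 2 and 3 of the first group and replicate 2 of the second were low, and the groups overlapped. By edgeR the log2 fold change of 0.47 ± 0.61 (SE, n = 4 and 4) had an adjusted p of 0.820, and it ran from 0.14 without Atf3+/+FS6KD replicate 2 to 1.10 without Atf3+/+FS6KD replicate 4. Among the AAV libraries Arntl was at 7.59, 1.70 and 1.41 CPM under shCtrl and at 1.51, 1.70 and 1.70 CPM under shAtf3. Replicate 1 labelled shCtrl rested on 315 counts, with a 95% Poisson interval of 6.78 to 8.48 CPM, and the other 5 libraries on 50 to 68 counts each. These intervals cover counting error only. By edgeR the log2 fold change of -1.14 ± 0.59 (SE, n = 3 and 3) had an adjusted p of 0.464, and it turned to 0.066 when replicate 1 labelled shCtrl was left out.

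Npas2 (chr1:39193702-39363240), which can stand in for Clock as the partner of Arntl, was at 3.89, 1.94, 1.31 and 8.0 CPM in the libraries labelled Atf3+/+FS6KD and at 6.61, 2.31, 4.70 and 5.88 CPM in those labelled Atf3-/-FS6KD. The same 3 libraries were low as for Arntl. By edgeR the log2 fold change of 0.35 ± 0.53 (SE) had an adjusted p of 0.852, and it ran from 0.040 without Atf3+/+FS6KD replicate 3 to 1.06 without Atf3+/+FS6KD replicate 4. Under shCtrl it was at 3.52, 2.68 and 2.09 CPM and under shAtf3 at 1.75, 1.82 and 1.49 CPM. Here the groups did not overlap, on 80 to 146 counts against 44 to 59, and all 3 libraries labelled shAtf3 were below all 3 labelled shCtrl. By edgeR the log2 fold change of -0.71 ± 0.21 (SE, n = 3 and 3) had an unadjusted p of 0.00815 and an adjusted p of 0.220, which ranged from 0.0566 to 0.526 over the alternatives. Without replicate 1 labelled shCtrl, the log2 fold change was -0.50.

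Clock (chr5:76209868-76305603), whose transcript is known for a shallow rhythm, moved over a smaller range in the same direction as Arntl. It was at 88.0, 48.9, 70.7 and 89.3 CPM in the libraries labelled Atf3+/+FS6KD and at 94.8, 73.0, 89.9 and 91.9 CPM in those labelled Atf3-/-FS6KD. Its lowest value was in replicate 2 labelled Atf3+/+FS6KD, as for Arntl. Clock was at 68.1, 53.5 and 44.3 CPM under shCtrl and at 51.5, 57.8 and 54.4 CPM under shAtf3, again highest in replicate 1 labelled shCtrl. By edgeR the log2 fold change was 0.23 ± 0.18 (SE) in the knockout comparison, with an adjusted p of 0.669, and -0.020 ± 0.13 (SE) in the AAV comparison, with an adjusted p of 0.970, where its sign depended on the method.

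The period genes, which encode the repressors that close the loop, ran the other way. Per1 (chr11:69095108-69109965) was at 41.6, 57.1, 119 and 22.4 CPM in the libraries labelled Atf3+/+FS6KD and at 19.2, 79.1, 30.9 and 17.5 CPM in those labelled Atf3-/-FS6KD. Replicates 2 and 3 of the first group and replicate 2 of the second, the libraries low in Arntl, were the highest of their groups. Per2 (chr1:91415977-91459351) was at 4.20, 28.5, 17.3 and 3.65 CPM and at 2.77, 13.6, 4.25 and 5.27 CPM in the same order. The spread of Per2 was 10.2-fold, and the groups overlapped. Per3 (chr4:150997018-151044707) was at 6.35, 26.7, 14 and 7.5 CPM and at 6.33, 13.1, 5.49 and 6.43 CPM. The same 3 libraries were the high ones for each period gene. The log2 fold changes for the knockout label were -0.72 ± 0.59 for Per1, -1.06 ± 0.71 for Per2 and -0.80 ± 0.46 for Per3 (SE; edgeR adjusted p = 0.700, 0.631 and 0.591). None of these differences was larger than the spread within groups by the test. With 1 library left out they ran from -1.41 to -0.14 for Per1, from -1.67 to -0.41 for Per2 and from -1.15 to -0.27 for Per3. The lower end was without Atf3-/-FS6KD replicate 2 for all 3 genes, and the upper end was without Atf3+/+FS6KD replicate 3 for Per1 and replicate 2 for Per2 and Per3.

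Among the AAV libraries the period genes were lowest in replicate 1 labelled shCtrl and close together in the other 5 libraries. Per1 was at 63.8, 105 and 83.3 CPM under shCtrl and at 97.2, 93.8 and 93.3 CPM under shAtf3. Per2 was at 11.2, 31.4 and 25.0 CPM against 23.0, 25.6 and 26.4 CPM. Per3 was at 9.95, 23.7 and 24.2 CPM against 22.8, 22.8 and 21.6 CPM. For all 3 genes the libraries labelled shAtf3 lay within the range of those labelled shCtrl. The log2 fold changes were 0.17 ± 0.15, 0.15 ± 0.29 and 0.22 ± 0.27 (SE; edgeR adjusted p = 0.691, 0.882 and 0.800). Without replicate 1 labelled shCtrl those of Per2 and Per3 turned to -0.18 and -0.097, and that of Per1 was 0.0055. Part of the Per3 reads may be split with a second listing, Per3_1, read as a copy on an alternate locus, and Per3 overlaps Uts2 on the opposite strand over 4714 bases. Merging the copy left Per3 past no threshold.

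The nuclear receptors that repress Arntl differed from each other. Nr1d2 (chr14:18204056-18239106) was at 138, 185, 157 and 91.8 CPM in the libraries labelled Atf3+/+FS6KD and at 109, 153, 104 and 115 CPM in those labelled Atf3-/-FS6KD, highest in the libraries low in Arntl. It was at 132, 165 and 169 CPM under shCtrl and at 171, 170 and 155 CPM under shAtf3. Nr1d1 (chr11:98767932-98775377) did not follow that order. It was at 130, 90.1, 134 and 103 CPM in the libraries labelled Atf3+/+FS6KD and at 109, 127, 141 and 131 CPM in those labelled Atf3-/-FS6KD. Of the 3 libraries low in Arntl, replicate 2 labelled Atf3+/+FS6KD was its lowest of the 8 and replicate 3 of the same label was among its highest. It was at 115, 97.7 and 75.3 CPM under shCtrl and at 90.0, 93.6 and 81.6 CPM under shAtf3, so that it was highest in replicate 1 labelled shCtrl, with Arntl and not against it. The log2 fold changes of Nr1d1 were 0.15 ± 0.13 and -0.12 ± 0.13, and those of Nr1d2 were -0.25 ± 0.20 and 0.090 ± 0.094 (SE; knockout and AAV comparison; edgeR adjusted p = 0.716, 0.772, 0.696 and 0.751). Nr1d1 overlaps Thra tail to tail over 1075 bases, and whether the counting used strand is not stated. Thra was at 118 to 174 CPM, and its correlation with Nr1d1 over the 14 libraries, centred on their groups, was r = 0.16 and rho = 0.17. With the difference between the arms, given below, Thra correlated at r = 0.84 (rho = 0.74), and at r = 0.89 within the knockout experiment. The part of Thra reads in the counts of Nr1d1 was not tested.

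Dbp (chr7:45705100-45710203), a PAR bZip activator and the usual readout of clock output, was at 58.3, 116, 136 and 35 CPM in the libraries labelled Atf3+/+FS6KD and at 38.9, 87.2, 53.7 and 49.4 CPM in those labelled Atf3-/-FS6KD. Ciart (chr3:95878500-95882257), which encodes a repressor of the CLOCK-BMAL1 pair, was at 6.35, 17.6, 28.3 and 3.13 CPM and at 4.46, 15.9, 4.68 and 4.14 CPM. Both genes were highest in replicates 2 and 3 labelled Atf3+/+FS6KD and in replicate 2 labelled Atf3-/-FS6KD, and lowest of the 8 libraries in replicate 4 labelled Atf3+/+FS6KD. The log2 fold changes were -0.59 ± 0.41 for Dbp and -0.95 ± 0.69 for Ciart (SE; edgeR adjusted p = 0.641 and 0.658). They ran from -0.86 to -0.28 and from -1.64 to -0.30 between leaving out Atf3-/-FS6KD replicate 2 and Atf3+/+FS6KD replicate 3. Dbp was at 70.1, 112 and 123 CPM under shCtrl and at 144, 116 and 110 CPM under shAtf3. Ciart was at 12.2, 26.8 and 18.9 CPM against 23.4, 24.5 and 25.4 CPM. Replicate 1 labelled shCtrl was again the low one for both, and the groups overlapped. The log2 fold changes were 0.27 ± 0.19 and 0.34 ± 0.23 (SE; edgeR adjusted p = 0.592 and 0.571), and without replicate 1 labelled shCtrl they were 0.064 and 0.097. Dbp shares 741 bases with Sphk2 on the opposite strand, and Ciart lies within a long noncoding gene, C920021L13Rik, on the opposite strand.

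Counts of calls were set against all genes. In the knockout comparison edgeR called 0 of the 10 members at an adjusted p below 0.05 (0% of all genes), 0 had an unadjusted p below 0.05 (10.1% of all genes), and 0 did not overlap between the groups (5.71% of all genes). DESeq2 called 0 of the 10 there, with 1.34% of all genes called. In the AAV comparison edgeR called 0 members (0.539% of all genes) and DESeq2 called 0 (2.02%). Npas2 was the 1 member with an unadjusted p below 0.05 (12.7% of all genes) and the 1 member without overlap (18.4% of all genes). In the difference between the experiments edgeR called 0 members (0.166% of all genes), 0 had an unadjusted p below 0.05 (17.0%), and DESeq2 called 0 (4.27%). The differences in log2 fold change (knockout minus AAV) ran from -1.31 ± 0.88 for Ciart to 1.60 ± 1.04 for Arntl (SE; edgeR adjusted p = 0.485 and 0.468). limma-trend called 0 members in each of the 3 fits.

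**Figure D2:**
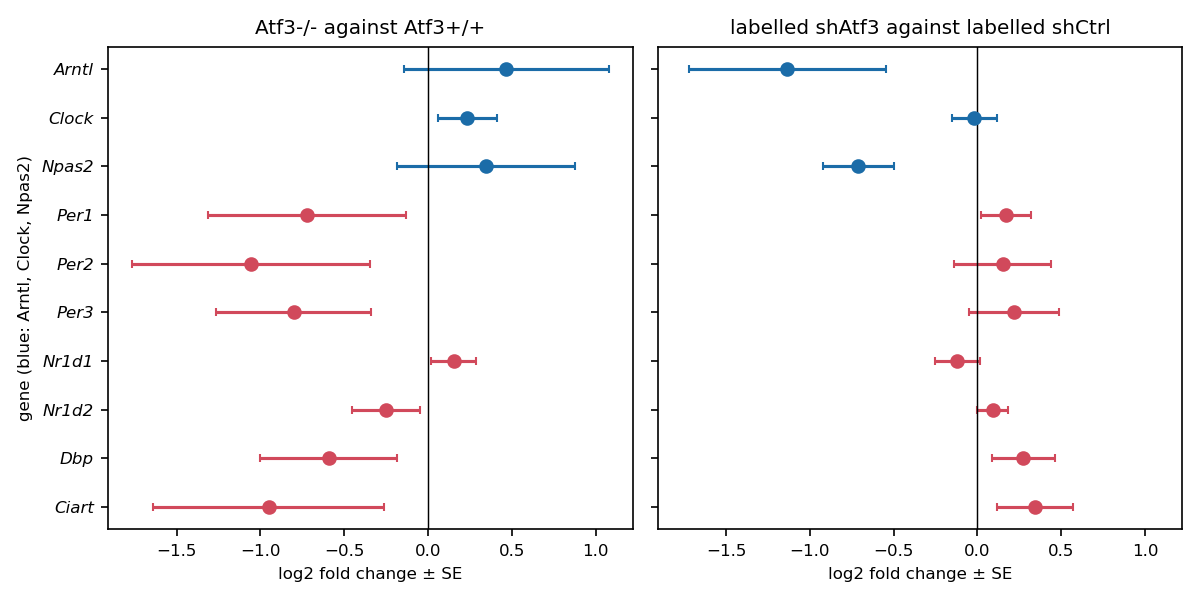
The log2 fold change of each clock gene is plotted with its SE for Atf3-/-FS6KD against Atf3+/+FS6KD (left) and labelled shAtf3 against labelled shCtrl (right), with Arntl, Clock and Npas2 in blue and the other genes in red. In the knockout comparison 4 of the 10 fold changes were above 0 and 6 below, in the AAV comparison 6 were above and 4 below, and none passed the edgeR test.

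The spread within groups was large beside that of other genes in the knockout experiment. The SD of log2 CPM within groups of the knockout experiment was 1.25 for Per2, 1.20 for Ciart, 1.19 for Arntl, 0.999 for Per1 and 0.94 for Npas2, beside a median of 0.15 over all genes tested. Arntl stood at the percentile 99.3 of all genes and Per2 at 99.4. Per3 (0.78), Dbp (0.73), Nr1d2 (0.35), Clock (0.31) and Nr1d1 (0.22) followed. Among the AAV libraries the SD was 0.93 for Arntl, at the percentile 99.8, with a median of 0.12 over all genes, and 0.55 for Per2, 0.52 for Per3 and 0.40 for Ciart. The value for Arntl came from replicate 1 labelled shCtrl, since the other 5 libraries lay between 1.41 and 1.70 CPM. It was 0.34 for Dbp, 0.28 for Npas2, 0.26 for Per1, 0.23 for both Clock and Nr1d1, and 0.15 for Nr1d2.

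The arms were then compared within each library. The mean log2 CPM of Arntl and Npas2 minus that of Per1, Per2, Per3, Nr1d1, Nr1d2, Dbp and Ciart was -1.77, -4.74, -4.52 and -0.45 in replicates 1 to 4 labelled Atf3+/+FS6KD. It was -0.72, -3.50, -1.34 and -1.0 in those labelled Atf3-/-FS6KD. Replicates 2 and 3 of the first group and replicate 2 of the second had wide gaps between the arms, and the other 5 libraries had narrow ones. In the AAV experiment the difference was -2.82, -4.84 and -4.96 under shCtrl and -5.15, -5.02 and -5.11 under shAtf3. There, replicate 1 labelled shCtrl was the 1 library with a narrower gap. The ratio of Dbp to Arntl counts, taken within a library and so free of the scaling between libraries, was 4.03, 54.9, 28.1 and 1.58 under Atf3+/+FS6KD and 2.08, 12.8, 3.27 and 2.62 under Atf3-/-FS6KD. It was 9.23, 65.8 and 87.5 under shCtrl and 95.2, 68.3 and 64.5 under shAtf3. Both measures placed the same libraries apart.

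**Figure D3:**
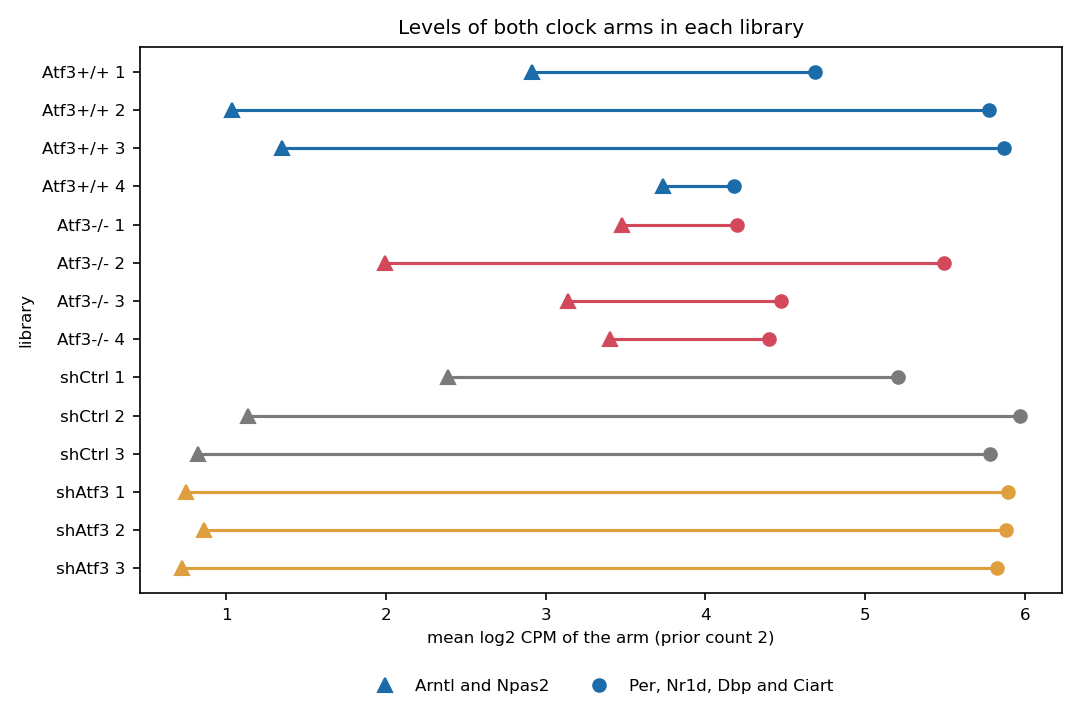
For each of the 14 libraries, the mean log2 CPM of Arntl and Npas2 (triangle) is joined to that of Per1, Per2, Per3, Nr1d1, Nr1d2, Dbp and Ciart (circle). The line is shortest in replicate 4 labelled Atf3+/+FS6KD (difference -0.45) and long in all libraries of the AAV experiment except replicate 1 labelled shCtrl (-2.82).

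By group, the difference between the arms was -2.87 ± 2.11 (SD, n = 4) for Atf3+/+FS6KD, -1.64 ± 1.27 (SD, n = 4) for Atf3-/-FS6KD, -4.20 ± 1.20 (SD, n = 3) for shCtrl and -5.09 ± 0.064 (SD, n = 3) for shAtf3. The group means differed by 1.23 log2 units in the knockout experiment, less than the pooled SD within groups of 1.74, and by -0.89 in the AAV experiment, beside a pooled SD of 0.85. Leaving out 1 library moved the first difference to between 0.61 (without Atf3+/+FS6KD replicate 2) and 2.04 (without Atf3+/+FS6KD replicate 4), and it was also 0.68 without Atf3+/+FS6KD replicate 3 and 1.85 without Atf3-/-FS6KD replicate 2. It moved the second to -0.20 when replicate 1 labelled shCtrl was left out. No test was made of the arms, since their members had been chosen with earlier results known. Within replicates 1 and 2 the knockout difference was 1.14, and within the deeper replicates 3 and 4 it was 1.32. Each of these values rests on 2 libraries per label, and the part of depth was not tested. The labels name no batch. The widest and the narrowest gap of the deep libraries were in replicates 3 and 4 labelled Atf3+/+FS6KD, at 118654292 and 134920825 counts. Leaving Nr1d1 out of the negative arm, an alternative chosen after seeing the data, gave 1.34 and -0.94.

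The see-saw between the genes was described by correlations over libraries, after each value had been centred on its group. Over the 8 libraries of the knockout experiment, which share 1 normalisation and fall into 2 sets by depth, Arntl correlated with Clock (r = 0.97, rho = 0.98) and Npas2 (r = 0.87, rho = 0.83). It correlated negatively with Per2 (r = -0.96, rho = -0.93), Per3 (r = -0.95, rho = -0.88), Nr1d2 (r = -0.91, rho = -0.76), Dbp (r = -0.91, rho = -0.83), Ciart (r = -0.88, rho = -0.90) and Per1 (r = -0.73, rho = -0.86). Without the 2 libraries farthest from the median of Arntl, these 8 values of r ranged from -0.96 to -0.82 and from 0.94 to 0.95. Nr1d1 was the exception among the 10 genes, with r = 0.25 and rho = 0.19, and r = -0.50 without those 2 libraries. Among the AAV libraries the correlations between members rested on replicate 1 labelled shCtrl and are not given.

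**Figure D4:**
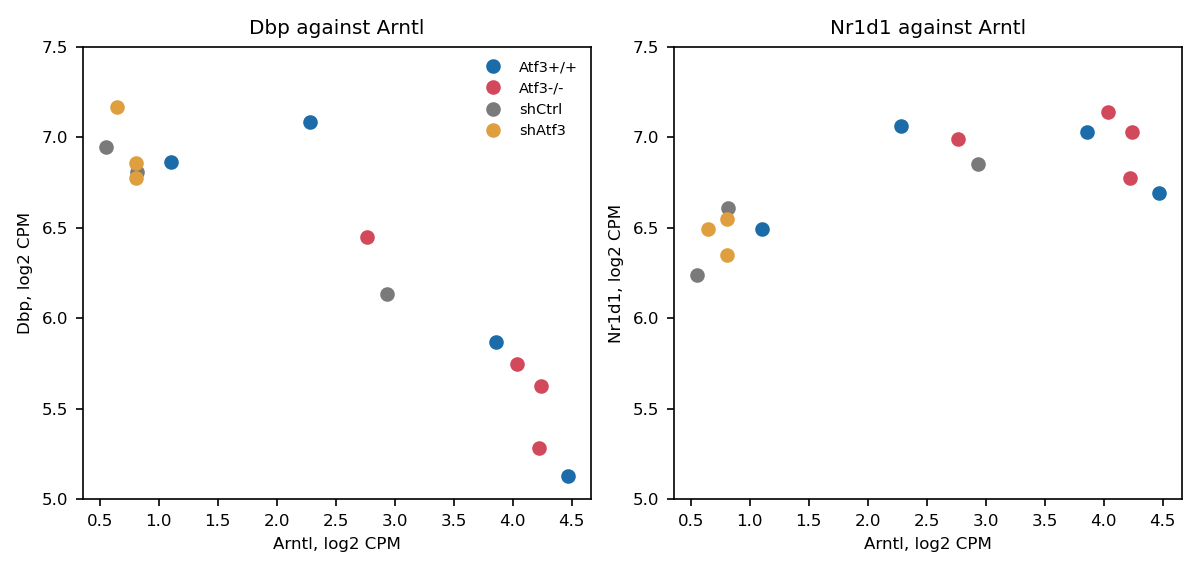
Dbp (left) and Nr1d1 (right) are plotted against Arntl in log2 CPM, with 1 point per library coloured by label (Atf3+/+FS6KD, Atf3-/-FS6KD, MyoAAV2-shCtrl, MyoAAV2-shAtf3), and the experiments were normalised separately. Dbp ran against Arntl (r = -0.91 over the 8 libraries of the knockout experiment), and Nr1d1 did not (r = 0.25).

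The levels of the members were ordered per kilobase of exon (CPM divided by the exonic length in GENCODE vM21), since their transcripts differ in length. In the knockout experiment Nr1d1 was highest, at a mean of 39.2 CPM per kilobase over 8 libraries (29.3 to 45.8), followed by Nr1d2 at 24.3, Dbp at 24.0, Per1 at 8.59, Clock at 5.89, Ciart at 4.67, Arntl at 1.73, Per2 at 1.70, Per3 at 1.12 and Npas2 at 0.90. All neighbours in that order overlapped in range. In the AAV experiment Dbp was highest, at 37.6 (23.4 to 48.0), followed by Nr1d1 at 29.99, Nr1d2 at 29.6, Per1 at 15.9, Ciart at 9.67, Per2 at 4.06, Clock at 4.00, Per3 at 2.17, Npas2 at 0.46 and Arntl at 0.35 (0.19 to 1.01). The neighbours that did not overlap there were Nr1d2 and Per1, Ciart and Per2, Clock and Per3, and Per3 and Npas2. The level of Per3 leaves out the copy Per3_1, at 4.34 to 20.6 CPM in the knockout and 7.74 to 19.1 CPM in the AAV experiment. With the reads of Per3_1 added, Per3 would stand higher. Its place in the knockout order and its gap from Clock in the AAV order therefore depend on this split.

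Other genes of the loop moved with the negative arm in part. Of 12 further clock and PAR bZip genes, 0 passed the test in either comparison, with medians of -0.12 (knockout) and 0.12 (AAV) on the log2 scale beside 0.00054 and -0.0029 over all genes. Tef, a PAR bZip relative of Dbp, was at 134, 319, 202 and 133 CPM in the libraries labelled Atf3+/+FS6KD, at 100, 182, 106 and 121 CPM in those labelled Atf3-/-FS6KD, at 171, 285 and 300 CPM under shCtrl, and at 310, 295 and 300 CPM under shAtf3. Hlf, the third PAR bZip gene, was at 22.2, 68.4, 39.9 and 23.4 CPM, at 16.0, 32.0, 18.2 and 22.0 CPM, at 29.6, 58.5 and 59.8 CPM, and at 65.6, 60.1 and 59.1 CPM in that order. Both were high where Arntl was low. The groups did not overlap for 1 of the 12 in the knockout comparison (5.71% of all genes) and 2 in the AAV comparison (18.4% of all genes). Among these, Rora, an activator at ROREs, had a mean of 49.4 ± 7.05 CPM (SD) under Atf3+/+FS6KD and 42.3 ± 1.23 CPM under Atf3-/-FS6KD (edgeR adjusted p = 0.465). Cry1, a repressor that partners PER, was at 13.9 ± 2.17 CPM under shCtrl and 17.9 ± 0.215 CPM under shAtf3 (edgeR adjusted p = 0.221), and Nfil3, a repressor at D-boxes, at 11.2 ± 1.28 and 13.3 ± 0.507 CPM (edgeR adjusted p = 0.357). Over the 14 libraries, centred on groups, the correlation with Arntl was r = -0.96 for both Tef and Hlf, -0.93 for Cry2, -0.76 for Rora and -0.58 for Cry1. Over the 8 libraries of the knockout experiment it was r = -0.96 for Tef and -0.95 for Hlf.

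**Figure D5:**
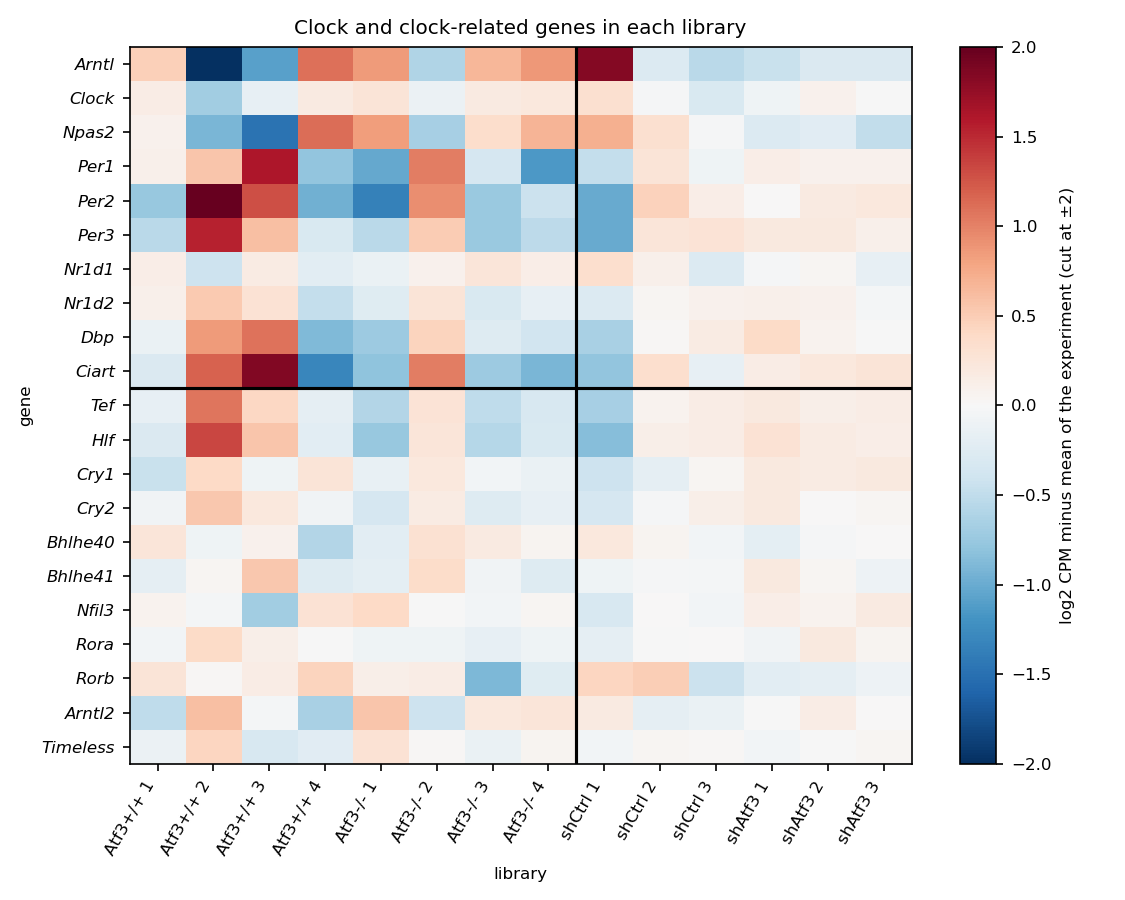
Colours give the log2 CPM of each gene in each library minus the mean of its experiment (colour limits at -2 and 2), with the 10 clock genes above the horizontal line, 11 of the further clock and PAR bZip genes below it, and the AAV experiment to the right of the vertical line. The columns of Atf3+/+FS6KD replicates 2 and 3 and of Atf3-/-FS6KD replicate 2 show the opposite colours to the other libraries of the knockout experiment for Arntl, Npas2, Per2, Dbp, Ciart, Tef and Hlf.

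Of 7 kinases, ubiquitin ligases and a protease that act on clock proteins, 0 were called in the knockout comparison, and 0 of the 6 tested were called in the AAV comparison, with medians of 0.0043 and 0.045. Usp2, a deubiquitinase under clock control, was the 1 of those 6 without overlap in the AAV comparison, beside 18.4% of all genes. It was at 162 ± 22.4 CPM under shCtrl and 196 ± 7.10 CPM under shAtf3 (SD, edgeR adjusted p = 0.288). Of 11 genes known as outputs of the cardiac clock, such as Klf15, Kcnip2 and Wee1, 0 were called. Their log2 fold changes were below 0 for 10 of 11 in the knockout comparison (median -0.27) and above 0 for 10 of 11 in the AAV comparison (median 0.11). The medians over all genes were 0.00054 and -0.0029. The mean log2 CPM of these 11 genes correlated with the difference between the arms at r = -0.36 (rho = -0.38) over the 14 libraries, centred on groups. Lpl, which releases fatty acids from circulating lipoproteins, was the 1 of the 11 without overlap in the knockout comparison, beside 5.71% of all genes. It was at 5182 to 5565 CPM under Atf3+/+FS6KD and 4347 to 4933 CPM under Atf3-/-FS6KD (edgeR adjusted p = 0.389).

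Outside the 10 members, the genes whose pattern was most like that of Arntl over the 14 libraries, centred on groups, were Unc119b (r = 0.96), Col5a3 (0.95), Leo1 (0.94), Pacsin2 (0.94) and Dtx4 (0.93). Those most opposed to it were Stk35 (r = -0.97), Tef (-0.96), Hlf (-0.96), Trib1 (-0.94) and Per3_1 (-0.94). For Dbp the most alike outside the members were Usp2 (r = 0.97), Tspan4 (0.93), Pfkfb3 (0.92), Ephx1 (0.90) and Stk35 (0.90), and among the most opposed were Kdr (r = -0.97), Soga1 (-0.93), Gtf2ird1 (-0.92) and Elk3 (-0.91). These were picked from 10114 genes with a mean above 3 log2 CPM as the extremes of r, and they share libraries with the members. Over the 8 libraries of the knockout experiment alone, the same genes had r from -0.98 to -0.92 and from 0.92 to 0.99. Kdr, the endothelial receptor for VEGF, was at 275, 212, 194 and 295 CPM under Atf3+/+FS6KD and at 300, 217, 266 and 282 CPM under Atf3-/-FS6KD, lowest in the 3 libraries low in Arntl.

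Gene lists that respond to handling and stress were read beside the arms. The difference between the arms correlated over the 14 libraries, centred on groups, at r = -0.32 (rho = -0.12) with the mean log2 CPM of 9 glucocorticoid-induced genes, at 0.21 (rho = 0.14) with that of 10 immediate early genes, and at -0.39 (rho = -0.30) with that of 7 heat and cold responsive genes. Within the knockout experiment (n = 8) these r were -0.45, 0.60 and -0.51, and within the AAV experiment (n = 6) they were 0.44, -0.73 and -0.19. Every r with the difference between the arms within the AAV experiment, here and for the cell type markers, rests on replicate 1 labelled shCtrl, since that library was at -2.82 and the other 5 were at -4.84 to -5.15. It correlated at 0.34 (rho = 0.39) with log2 total count, at 0.36 and 0.33 within the experiments. Of these lists 0 genes were called in either comparison, and the median log2 fold changes were -0.18, -0.35 and -0.24 in the knockout and -0.070, -0.11 and 0.15 in the AAV comparison. In the knockout comparison 2 of the 7 heat and cold responsive genes did not overlap, beside 5.71% of all genes. They were Hspa1a and Hspa1b, which encode inducible HSP70 and are near-identical copies whose reads cannot be assigned with certainty. They were at 2.65 to 3.81 and 2.01 to 2.98 CPM under Atf3+/+FS6KD and 1.24 to 2.26 and 1.16 to 1.73 CPM under Atf3-/-FS6KD (edgeR adjusted p = 0.277 and 0.299). In the AAV comparison 1 of the 9 glucocorticoid-induced genes did not overlap, beside 18.4% of all genes. It was Mt2, a metallothionein, at 23.6 to 26.0 CPM under shCtrl and 13.3 to 20.4 CPM under shAtf3 (edgeR adjusted p = 0.199).

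Cell type markers also differed among the libraries, and in whole hearts fewer cells of a type and less RNA per cell cannot be told apart. Cardiomyocyte markers summed to 47964 to 70148 CPM in the knockout and 54093 to 63461 CPM in the AAV experiment (r = 0.0051 with the difference between the arms, and 0.13 and -0.79 within the experiments). The 6 fibroblast markers summed to 1424 to 1673 CPM under Atf3+/+FS6KD, 1710 to 2216 CPM under Atf3-/-FS6KD, 1782 to 2337 CPM under shCtrl and 1386 to 1481 CPM under shAtf3. These sums did not overlap between the labels in either experiment. Col1a1 and Col3a1 fell under shAtf3 (log2 fold change -0.84 ± 0.11 and -1.05 ± 0.16, SE; edgeR adjusted p = 0.0293 and 0.0328). The correlation of the fibroblast list with the difference between the arms was r = 0.067 (-0.051 and 0.77 within the knockout and the AAV experiment). The 5 endothelial markers summed to 699 to 891 CPM under Atf3+/+FS6KD, 770 to 915 CPM under Atf3-/-FS6KD, 717 to 751 CPM under shCtrl and 711 to 782 CPM under shAtf3, and their mean log2 CPM correlated with the difference between the arms at r = 0.74 (0.78 and 0.46 within the experiments). The 5 macrophage markers summed to 103 to 135, 111 to 162, 157 to 167 and 142 to 150 CPM in that order (r = -0.65, with -0.78 and 0.67 within the experiments). The sums of the atrial markers were 566 to 648, 286 to 698, 264 to 786 and 255 to 338 CPM (r = -0.041, with -0.30 and 0.44 within the experiments), and those for erythrocyte markers 273 to 470, 246 to 398, 325 to 751 and 287 to 654 CPM (r = -0.29, with -0.40 and -0.33 within the experiments). None of 5 adipocyte markers passed 1 CPM in any library. The part of these cells in the levels of the clock genes was not tested.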

How the data were processed

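Polyadenylated RNA of whole hearts was sequenced from strand-specific libraries. Per the methods of the study and the submitters' processing notes, reads were mapped to GRCm38.p6 and counted by the authors with featureCounts 2.0.0. The aligner and the use of strand are not given in the sources used here, and the mapping of the AAV libraries is not described in the methods. The 2 deposited tables hold estimated counts per gene, not normalized, of which 19.3% to 24.4% per library were not whole. They were rounded before every test.

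A gene entered a comparison when any of its libraries exceeded 1 CPM. The test was the two-sided quasi-likelihood test of edgeR 4.0.16 with TMM factors in R 4.3.3, and calls were made at a Benjamini-Hochberg value below 0.05. The SE was taken as the log2 fold change over the square root of F. log2 CPM carry a prior count of 2. The difference between experiments is an interaction in 1 fit of 14 libraries. DESeq2 1.42.0 and limma 3.58.1 were alternatives, as were other scalings, filters, model terms and left-out libraries. The scripts were tested on simulated data. The labels do not name separate litters, so p-values measure the spread between these samples. Per gene, the chi-square between replicates was 7.31 to 99.3, above sampling noise in every pair. No sample column was left out. The members and lists were chosen with earlier results of these data known. All 10 members were named, and from each further clock, output, hormone and stress list the genes called or, up to 3 per list and comparison, those of smallest p without overlap. Marker lists are given by their sums. The 5 genes outside the members at each end of r were named for Arntl and Dbp, and some items are not reported here. Promoter windows are from RefSeq.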

Additional observations from a re-analysis of the deposited data

Results flagged for a closer look

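Among the 4 libraries labelled Atf3-/-FS6KD, replicate 2 lay apart from the other 3 for Ciart, at 15.9 CPM against 4.14 to 4.68 CPM, and for Per3, at 13.1 CPM against 5.49 to 6.43 CPM. The gap to the nearest library made up 0.954 of the range of the group for Ciart and 0.876 for Per3, above Dixon's 95% critical value for 4 samples. Chance alone places about 1 in 20 groups above that value.

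Col1a1 and Col3a1, markers of fibroblasts, differed between the experiments, with a log2 fold change for the knockout minus that for the AAV comparison of 1.47 ± 0.25 and 1.76 ± 0.23 (SE, edgeR adjusted p = 0.0345 and 0.0141). This difference is conditional on the AAV labels, to which the column names read the opposite way. By the labels both genes were higher in the knockout and lower in the AAV comparison. By the column names they would be higher in both, and that reading was not fitted.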

How the results depend on the processing

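The count of clock genes called was 0 in each of the 3 fits under every alternative that was run: DESeq2, limma-trend, library size alone, no filter, filterByExpr, a replicate block, merged copies and each library left out (0 to 0). In the knockout comparison it was also 0 with depth (replicates 1 and 2 against 3 and 4) as a term and with either set by itself. Over all genes, edgeR called 0 in the knockout comparison, 82 in the AAV comparison and 26 in the difference between experiments. The counts in that order were 208, 308 and 669 with DESeq2, 0, 85 and 51 with limma-trend, 0, 95 and 205 with library size alone, 2, 304 and 61 without a filter, and 0, 89 and 43 with merged copies. With 1 library left out they ran from 0 to 15, 1 to 285 and 0 to 168. Replicates 3 and 4 of the knockout experiment alone gave 8. Whether the replicate numbers pair the samples was not settled. The correlations of same-numbered libraries were 0.145, 0.086, 0.0064 and 0.127 in the knockout experiment and -0.00037, 0.151 and 0.083 in the AAV experiment. Those of differently numbered libraries ran from -0.244 to 0.190 and from -0.178 to 0.089, and not every library correlated best with its own number. These numbers are those of the sample titles; the column names of the knockout table number the libraries differently, and replicate 2 of the 2 genotypes carries different column numbers. A replicate block gave counts of 0, 20 and 54 over all genes and called 0 members.

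The difference between the arms kept its sign under every alternative, from 0.61 to 2.04 in the knockout and from -1.26 to -0.20 in the AAV experiment with 1 library left out. Leaving out 1 AAV library moved the log2 fold change of Arntl between -1.51 and 0.066, Clock between -0.16 and 0.16, Per2 between -0.18 and 0.47, Per3 between -0.097 and 0.41, Nr1d1 between -0.27 and 0.031 and Nr1d2 between -0.013 and 0.16. The sign of these 6 genes turned without replicate 1 labelled shCtrl. Clock also turned to 0.00097 with limma-trend and to 0.02 without replicate 1 labelled shAtf3, and Per1 to 0.00058 in the knockout comparison within replicates 1 and 2. The cause was not tested. No member was past the threshold in any of these fits. Arntl rested on 50 to 68 counts in 5 of the 6 AAV libraries and Npas2 on 44 to 59 under shAtf3, which limits the precision of both.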
